A study of Saccharomyces cerevisiae with 8 samples.

Results

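The empty MoBY 2.0 plasmid, kept in yeast by the antibiotic G418, was compared with the plasmid-free parent strain by RNA-seq, in 4 of the 8 libraries of the series. The 2 MoBY control and the 2 WT libraries were taken by their titles, and the genes were then described by 50 lists written for folding, stress, growth and metabolism. All groups are labelled *Saccharomyces cerevisiae* Y128, a strain evolved to ferment xylose that carries an added xylose isomerase gene (*CpXylA*) and xylulokinase gene (*PsXyl3*) and loss-of-function mutations in *ISU1*, *HOG1*, *GRE3* and *IRA2*. MoBY control cells held the empty plasmid with its *kanR* marker and grew with 200 mg/L G418, and WT cells held no plasmid and grew without G418. The other 4 libraries came from cells with an *AZF1* MoBY plasmid, also with G418, and from *azf1Δ* cells, which lack the transcription factor gene *AZF1* and grew without G418. Every culture was anaerobic, on 2% xylose, and was sampled in exponential growth, and the 2 replicates of a group were collected on different days. Plasmid and G418 changed together, so that their parts in any difference cannot be told apart. Growth rates and plasmid copy numbers were not analysed here.

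G418 is an aminoglycoside that binds the ribosome, slows translation and lowers its accuracy, and the product of *kanR* inactivates it by phosphorylation. Misfolded protein in yeast is met by chaperones of the Hsp70, Hsp90 and Hsp104 families, whose genes are driven by the heat shock factor Hsf1, and by the ubiquitin and proteasome system, whose genes are driven by Rpn4. Fast growth is marked by high levels of transcripts for ribosomes, glycolysis and the cell cycle. The cell wall integrity pathway, with sensors such as Mid2 and the kinase Slt2, adjusts wall synthesis under stress.

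In MoBY control, transcripts of the protein disaggregase, small heat shock, sorting and other heat shock genes (6 of 8) rose. So did those of anaerobic wall mannoproteins (16 of 21 genes) and of the cell wall (13 of 23), where 13.2% of all genes rose. Transcripts of the respiratory chain and ATP synthase (26 of 34 genes), of histones (7 of 8), of glycolysis (12 of 17) and of cytosolic ribosomal proteins (68 of 122) fell, where 10.6% of all genes fell. The inducible Hsp70 gene *SSA4* had 322 and 380.0 RPKM in MoBY control libraries, against 5.17 and 5.35 RPKM in WT libraries. Proteasome, trehalose and chaperonin genes gave at most 1 call per list.

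Transcript levels are given as RPKM, reads scaled to the length of the gene and to the mapped reads of the library. Fold changes are log2 values of RPKM + 1, MoBY control over WT, with the standard error (SE), and understate the change of low genes. Such values also stand in parentheses after a gene. A gene was called changed at a limma adjusted p under 0.05 (Benjamini-Hochberg over 5991 genes), and "rose" and "fell" are used of such genes only. The depth, worked out from the value of 1 read in low genes, was 6190000 to 6970000 mapped reads in the 4 libraries. Replicates differed by a median of 0.19 on the log2 scale in MoBY control and 0.13 in WT, so the plasmid cultures were the more variable pair. Of the 5991 genes, 1422 were called (23.7%), with 13.2% higher and 10.6% lower in MoBY control. The median over all genes was -0.02. The 50 lists named 1078 members, of which 1045 were in the table, 1035 of them distinct genes. Of these, 1027 passed the filter of 1 RPKM in 2 libraries and 382 were called. Changes of at least 2-fold were more often rises, with 368 rises and 141 falls. Of these falls, 57 were in genes without a RefSeq entry, which made 488 of the 5991 genes tested. At least 8-fold changes numbered 35 rises and 2 falls, both falls in reading frames without a RefSeq entry. The number called was 503 without MoBY control replicate A, 456 without replicate B, 371 without WT replicate A and 282 without WT replicate B, where 1 group is a single library assumed to vary like the other, and all 1422 kept their direction in each case. Of the list genes, 157, 161, 106 and 90 were called when the same libraries were left out in that order. With 2 libraries a group, a permutation test of a single gene could not go below p = 0.333. Levels of a named gene that do not overlap between the groups therefore add no support to its call.

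*kanR* stood at 68.6 and 90.5 RPKM in MoBY control libraries, against 0.200 and 0.351 RPKM in WT libraries. The study's strain list gives Y128 as resistant to G418 and a derivative, used for the plasmids and the deletion, with *KanMX* removed, so the low *kanR* of the WT libraries goes against the strain name in their labels and matches the derivative. The *azf1Δ* libraries, whose deletion carries *KanMX*, held 11.8 and 8.17 RPKM. *LEU2*, which encodes an enzyme of leucine synthesis, stood at 1218 and 1351 RPKM in MoBY control libraries, against 95.7 and 92.4 RPKM in WT libraries, a rise of 3.76 ± 0.11 (SE, adjusted p = 2.21e-05). The *AZF1* MoBY libraries had 776 and 765 RPKM of it, against 102 and 90.5 RPKM in *azf1Δ*, so *LEU2* was high in all 4 plasmid libraries. Whether its reads came from the plasmid or the chromosome was not tested, so its rise is not read here as a change of leucine synthesis. Other genes of leucine and isoleucine synthesis are given below. *PsXyl3* rose by 1.04, with 630.4 and 605 RPKM in MoBY control libraries, against 298 and 302 RPKM in WT libraries, whereas the xylose isomerase gene *CpXylA* stood at 6747 and 8135 RPKM in MoBY control libraries, against 10441 and 9675 RPKM in WT libraries and was not called (adjusted p = 0.127, or 0.0441 with all 8 libraries in the fit). *URA3*, a uracil synthesis gene, was not called either, at 13.5 and 11.96 RPKM in MoBY control and 14.2 and 17.1 RPKM in WT. *AZF1* itself differed by 0.14 ± 0.14 (SE), and did not pass the test (adjusted p = 0.524). Of the genes mutated in Y128, *IRA2*, a brake on Ras, had 218 and 204 RPKM in MoBY control and 73.5 and 63.6 RPKM in WT (1.61), *HOG1*, the kinase of osmotic stress, rose by 0.65, and *ISU1*, the scaffold of iron-sulfur clusters, was not called (0.32).

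The list of the 12 largest rises and 12 largest falls, among genes with a RefSeq entry held genes of many roles, with cell surface genes on both sides. Beside *SSA4*, *BTN2*, *HSP30*, *HSP42* and *SSA3*, described below with the folding genes, and the hexose transporter gene *HXT3*, the rises included *ADI1*, an enzyme of methionine salvage. It stood at 71.01 and 93.7 RPKM in MoBY control libraries, against 2.38 and 1.59 RPKM in WT libraries (4.80 ± 0.20, SE; adjusted p = 4.08e-05). *NRG1* encodes a repressor of glucose-repressed and stress genes and had 208 and 246 RPKM in MoBY control libraries, against 12.7 and 10.9 RPKM in WT libraries. The cell wall gene *NCW2* had 714 and 635 RPKM in MoBY control and 26.9 and 27.5 RPKM in WT, and *YPS1*, a protease anchored at the cell surface, had 340.1 and 343 RPKM in MoBY control and 23.4 and 22.01 RPKM in WT. Of *YBR056W-A* and *YOR385W*, the levels were 657 and 508 RPKM in MoBY control and 25.6 and 21.4 RPKM in WT for the first and 272 and 367 RPKM in MoBY control and 13.3 and 12.8 RPKM in WT for the second, rises of 4.57 and 4.50 on the log2 scale.

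The falls were smaller. *COX26*, a subunit gene of cytochrome c oxidase, stood at 5.06 and 9.78 RPKM in MoBY control libraries, against 34.5 and 40.8 RPKM in WT libraries, a change of -2.25 ± 0.27 (SE, adjusted p = 0.00258). *ILV6*, the regulatory subunit of acetolactate synthase, had 71.5 and 105 RPKM in MoBY control and 380.0 and 355 RPKM in WT, and *NOP1*, the fibrillarin that methylates ribosomal RNA, had 76.1 and 85.04 RPKM in MoBY control and 292 and 276 RPKM in WT. *YDR134C* changed by -2.29, and *CCW12*, a wall mannoprotein gene of similar sequence, by -1.50, and reads may be shared between these genes. *TOS6* (-1.89), a further cell wall gene, *ATO3* (-1.85), a transporter gene linked to ammonium export, *CAR2* (-1.83), the ornithine transaminase of arginine breakdown, and *POX1* (-1.69), the acyl-CoA oxidase of peroxisomes, also fell. *FAA1*, an acyl-CoA synthetase gene, fell by 1.77, but its WT libraries differed from each other at 15.6 and 27.1 RPKM. *EGO4* (-1.80), *YDR524W-C* (-2.14) and *YOL097W-A* (-1.996) completed the 12.

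Among 132 tested genes of the folding lists, which count proteasome and ubiquitin genes too, 35 rose and 7 fell, against 13.2% and 10.6% of all genes, and the median was 0.17. The largest rises were those of *SSA4*, *BTN2*, *HSP30*, *HSP42* and *SSA3*. Of the 8 Hsp70 and Hsp110 genes, which bind unfolded protein with ATP, 5 rose and 2 fell. *SSA4*, the strictly heat-inducible Hsp70, changed by 5.81 ± 0.12 (SE, adjusted p = 1.07e-05) at the levels given above, and *SSA3* stood at 111 and 115 RPKM in MoBY control and 7.01 and 5.13 RPKM in WT (4.03 ± 0.16, SE; adjusted p = 3.86e-05). The constitutive *SSA2* was already abundant in WT and had 1089.9 and 1060.1 RPKM in MoBY control libraries, against 326 and 307 RPKM in WT libraries, a 3.40-fold ratio. Members of the *SSA* family can share reads, and *SSA1* was not analysed here. The Hsp110 genes, whose products recharge Hsp70, behaved alike, as *SSE2* rose by 2.32 and *SSE1* by 1.39.

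The Hsp70 genes *SSB1* and *SSB2*, whose products sit on the ribosome, went the other way. *SSB1*, which folds nascent chains, had 271 and 256 RPKM in MoBY control libraries, against 541 and 471 RPKM in WT libraries (-0.94 ± 0.12, SE; adjusted p = 0.00268), and *SSB2* had 324 and 311 RPKM in MoBY control and 584 and 516 RPKM in WT (-0.79). Their partner *ZUO1*, the ribosome-bound Hsp40, fell by 0.36 (adjusted p = 0.0473). *SSZ1*, a further ribosome-bound Hsp70, was not called (-0.13, adjusted p = 0.414). *SSB1* and *SSB2* thus moved in the opposite direction to the *SSA* and *SSE* genes in the same libraries, and *SSZ1* did not pass the test.

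Of the 14 Hsp40 and nucleotide exchange genes, which choose substrates for Hsp70 and release them, 6 rose and 2 fell, where 13.2% and 10.6% of all genes did. The median was 0.19 (0.50 leaving out MoBY control A, 0.052 leaving out MoBY control B and 0.31 leaving out WT B). The exchange factor gene *FES1* had 288 and 347 RPKM in MoBY control libraries, against 38.6 and 42.5 RPKM in WT libraries (2.93 ± 0.13, SE; adjusted p = 4.82e-05). *SIS1*, an essential Hsp40 that brings misfolded protein to Hsp104 and the nucleus, had 254 and 232 RPKM in MoBY control libraries, against 95.01 and 82.1 RPKM in WT libraries. The tail-anchored Hsp40 gene *HLJ1* rose by 2.66, *APJ1* by 1.94, *JJJ3* by 0.91 and the general Hsp40 gene *YDJ1* by 0.63. *DJP1*, which serves import into peroxisomes, fell by 0.56. The other 6 members, *XDJ1* (0.01), *CAJ1* (-0.17), *JJJ1* (0.05), *JJJ2* (-0.23), *SWA2* (0.10) and *SNL1* (0.28), were not called.

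In the Hsp90 system, which matures kinases and receptors, 6 of 14 genes rose, 2 fell and the median was 0.37. Of all genes, 13.2% rose and 10.6% fell. The inducible *HSP82* had 300.2 and 340.1 RPKM in MoBY control libraries, against 40.2 and 45.3 RPKM in WT libraries (2.88 ± 0.12, SE; adjusted p = 3.99e-05), and the constitutive *HSC82* had 488 and 635 RPKM in MoBY control and 298 and 282 RPKM in WT (0.94). The order of the pair therefore stayed the same, with *HSC82* above *HSP82* in all 4 libraries on the RPKM scale. The ratio of *HSC82* to *HSP82* was smaller in MoBY control, while their difference in RPKM was not smaller in both of its libraries. The co-chaperone genes *CPR6* (a prolyl isomerase, 2.20), *STI1* (the link to Hsp70, 1.95), *HCH1* (1.29) and *AHA1* (both activators of the ATPase, 0.99) rose. Those that fell were *SBA1*, the p23 homolog (-0.52), and the phosphatase gene *PPT1* (-0.70), and *CDC37* (-0.32), the kinase adaptor, *CNS1* (0.47), *SGT1* (0.27) and *CPR7* (-0.03) were not called. *TAH1* and *PIH1*, which assemble larger complexes with Hsp90, differed by -0.09 and 0.21 and were not called.

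The group with the highest median of all lists, 3.22, held the disaggregase, small heat shock proteins, sorting factors and other heat shock genes, of which 6 of 8 rose. Leaving out 1 library at a time kept that median between 3.15 and 3.30. *HSP104*, which pulls protein out of aggregates, had 396 and 498 RPKM in MoBY control libraries, against 66.3 and 64.9 RPKM in WT libraries (2.74 ± 0.13, SE; adjusted p = 7.06e-05). The small heat shock gene *HSP42* had 267 and 345 RPKM in MoBY control libraries, against 15.6 and 18.001 RPKM in WT libraries, and *HSP26* had 63.6 and 55.3 RPKM in MoBY control and 6.23 and 7.11 RPKM in WT. *BTN2* and *CUR1*, related factors that gather misfolded protein into deposits, had 197 and 276 RPKM in MoBY control libraries, against 3.53 and 4.32 RPKM in WT libraries for *BTN2* and 58.9 and 81.6 RPKM in MoBY control and 5.50 and 5.28 RPKM in WT for *CUR1*. *HSP30*, a plasma membrane protein of stressed cells, had 93.1 and 119 RPKM in MoBY control and 1.93 and 2.14 RPKM in WT. Not every heat shock gene followed. *HSP12*, a membrane-binding protein regulated by Msn2 and Msn4, stood at 0.441 and 11.004 RPKM in MoBY control libraries, against 0.979 and 2.17 RPKM in WT libraries. Its MoBY control libraries were far apart, the groups overlapped, and it was not called. *HSP31*, a glyoxalase, was at 17.9 and 18.6 RPKM in MoBY control and 20.7 and 16.9 RPKM in WT.

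**Figure D1:**
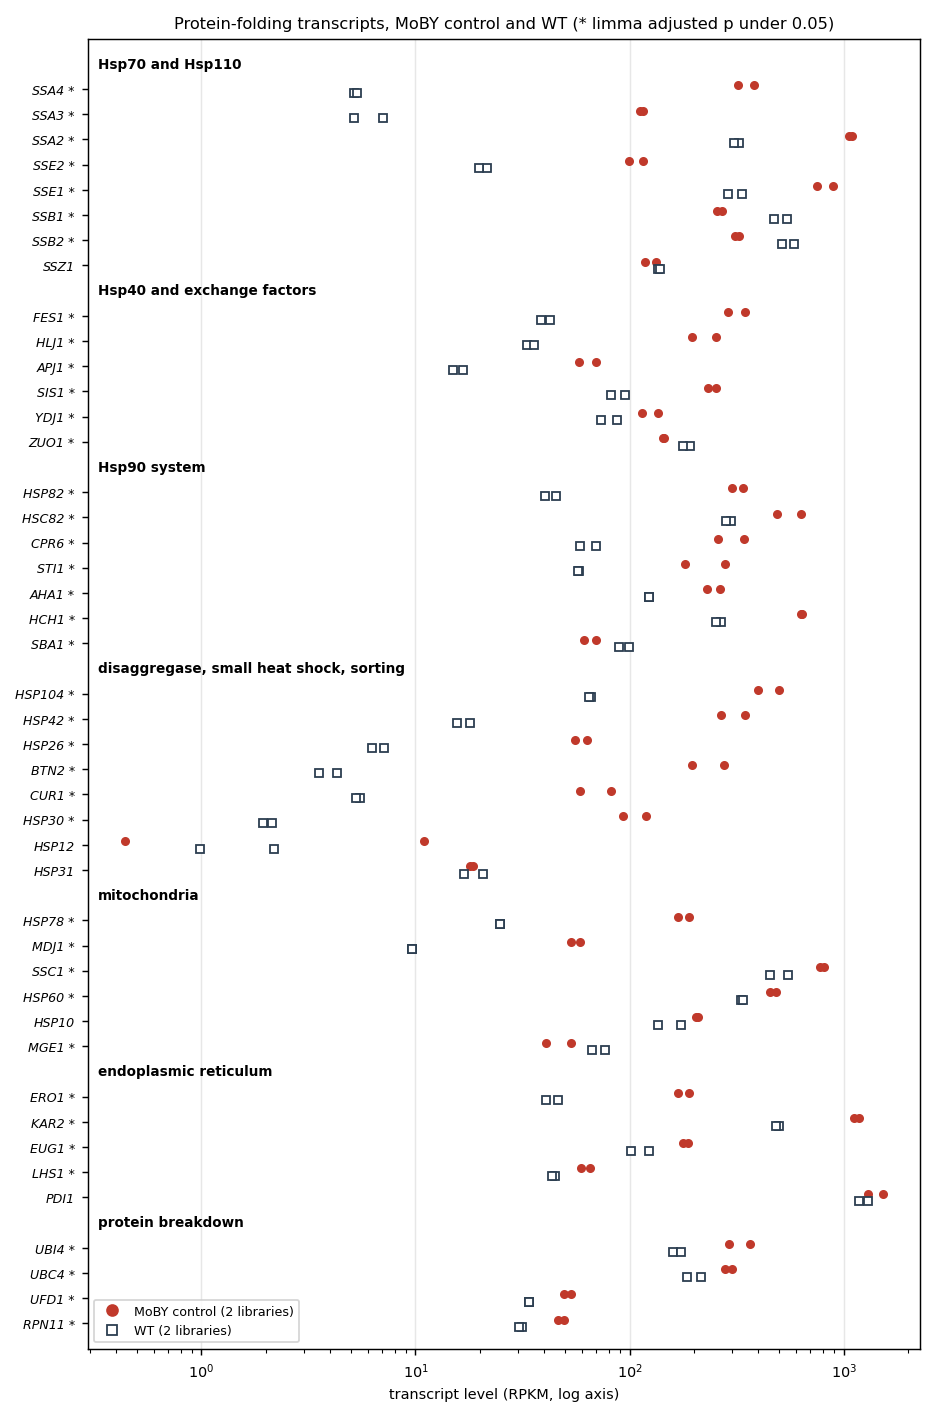
Transcript levels of protein-folding genes (RPKM, log axis) by role, with filled circles for the 2 MoBY control libraries and open squares for the 2 WT libraries, and an asterisk for a limma adjusted p under 0.05. *SSA4*, *BTN2* and *HSP30* lie furthest apart, *SSB1*, *SSB2*, *SBA1* and *MGE1* are lower in MoBY control, and *HSP12* overlaps.

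The chaperonin genes gave no call. Among 14 CCT and prefoldin genes, which fold actin and tubulin, 0 were called by limma (4 had an unadjusted p under 0.05), and their changes ran from -0.57 (*YKE2*) to 0.42 (*CCT2*) with a median of -0.12 (-0.00018 leaving out MoBY control A and -0.23 leaving out MoBY control B). In mitochondria, 4 of 10 chaperone genes rose, where 13.2% of all genes did. *HSP78*, the disaggregase of the matrix, had 168 and 189 RPKM in MoBY control libraries, against 24.8 and 24.8 RPKM in WT libraries (2.80 ± 0.11, SE; adjusted p = 3.86e-05), and the matrix Hsp40 gene *MDJ1* had 53.4 and 58.9 RPKM in MoBY control and 9.58 and 9.65 RPKM in WT (2.43). The import motor gene *SSC1* (0.66) and the chaperonin gene *HSP60* (0.48) rose less, the exchange factor gene *MGE1* fell by 0.60, and *HSP10* (0.42), *SSQ1* (-0.01), *ECM10* (0.47), *JAC1* (0.25) and *ZIM17* (-0.41) were not called.

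In the endoplasmic reticulum, 4 of 16 folding genes rose, where 13.2% of all genes did. The list median was 0.21 (0.062 leaving out MoBY control B). *ERO1*, the oxidase that supplies disulfide bonds, had 169 and 190.0 RPKM in MoBY control libraries, against 40.8 and 46.5 RPKM in WT libraries (2.02 ± 0.12, SE; adjusted p = 1.57e-04). *KAR2*, the Hsp70 of this compartment, had 1121 and 1176 RPKM in MoBY control libraries, against 501 and 481 RPKM in WT libraries (1.22). *EUG1*, a homolog of disulfide isomerase, rose by 0.70 and the Hsp70 co-chaperone gene *LHS1* by 0.49. The main disulfide isomerase gene *PDI1* was among the uncalled genes at 1305 and 1520.2 RPKM in MoBY control and 1296 and 1184 RPKM in WT, as was the cyclophilin gene *CPR5*, whose change of -0.31 was the lowest of the list. The *HAC1* transcript, which encodes the transcription factor of the unfolded protein response, rose by 0.47 (adjusted p = 0.0458), while *IRE1*, its activating kinase, did not pass the test (0.06). Splicing of *HAC1* was not analysed here.

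Of the 33 proteasome subunit genes, 1 rose, *RPN11*, the deubiquitinase of the lid, with 46.2 and 49.2 RPKM in MoBY control libraries, against 31.3 and 30.5 RPKM in WT libraries (0.61 ± 0.11, SE; adjusted p = 0.0107). The list median was 0.11 (0.060 leaving out MoBY control B), and the lowest change was -0.29 (*RPN8*). Of all genes, 13.2% rose. *RPN4*, the activator of proteasome genes, was called, with 148 and 161 RPKM in MoBY control libraries, against 93.7 and 91.1 RPKM in WT libraries (0.73). The polyubiquitin gene *UBI4* (0.96), the ubiquitin-conjugating gene *UBC4* (0.54) and *UFD1* (0.58), a partner of the segregase Cdc48, rose, and the other 12 genes of that list were not called, among them *CDC48* (0.30), *SHP1* (0.43), *RSP5* (-0.32) and the quality control ligase genes *SAN1* (-0.20) and *UBR1* (0.15).

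Of 21 regulator genes, 4 rose and 2 fell, near the 13.2% and 10.6% of all genes. *HSF1* was not called (12.8 and 14.1 RPKM in MoBY control and 8.34 and 10.4 RPKM in WT, adjusted p = 0.0836), and neither were the general stress factor genes *MSN2* (0.25) and *MSN4* (-0.31). *UPC2*, the activator of sterol and anaerobic genes, had 144 and 179.8 RPKM in MoBY control libraries, against 81.6 and 76.6 RPKM in WT libraries (1.02 ± 0.13, SE; adjusted p = 0.0034). *PDR1*, the activator of drug efflux genes, rose by 0.65. *GCN4*, the activator of amino acid synthesis genes whose output is set mainly at translation, fell by 0.46, with 724 and 671 RPKM in MoBY control and 989 and 936 RPKM in WT. *HAP4*, the activator of respiratory genes, fell as well (-0.77). The oxidative stress factor genes *YAP1* (-0.06) and *SKN7* (0.43), the glucose repressor gene *MIG1* (0.21) and the ribosomal regulator gene *SFP1* (0.08) were not called, nor were *CAD1*, *PDR3*, *GIS1*, *MGA2*, *CAT8*, *ADR1* and *MTH1*, whose changes lay between -0.19 (*MTH1*) and 0.13 (*CAD1*).

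In the general stress defense list 8 of 17 genes rose and the median was 0.91 (0.53 leaving out WT A). *HOR7*, a small membrane protein gene of hyperosmotic stress, had 1017 and 1136 RPKM in MoBY control libraries, against 140.1 and 119 RPKM in WT libraries (3.05 ± 0.13, SE; adjusted p = 3.99e-05), and the wall glycoprotein genes *YGP1* and *SPI1* rose by 2.44 and 2.01. The stress repressor gene *XBP1* rose by 2.12. Other well-known members were low in both groups, as the catalase gene *CTT1* had 1.91 and 2.51 RPKM in MoBY control libraries, against 2.60 and 1.95 RPKM in WT libraries. Of 20 antioxidant genes, 3 rose, near the 13.2% of all genes, the mitochondrial superoxide dismutase gene *SOD2* (0.85), the glutathione synthesis gene *GSH1* (0.79) and the peroxiredoxin gene *AHP1* (0.69), and the median was 0.02 (0.067 leaving out MoBY control A, 0.055 leaving out MoBY control B, -0.025 leaving out WT A and 0.092 leaving out WT B). Trehalose genes, whose sugar protects proteins in heat, were not called in any of 7 cases (0 with an unadjusted p under 0.05), and the synthase gene *TPS1* was at 63.6 and 70.03 RPKM in MoBY control and 66.7 and 71.01 RPKM in WT. Glycogen genes fell in 5 of 10 cases, where 10.6% of all genes fell, with a median of -0.45. The phosphorylase gene *GPH1* had 63.1 and 59.7 RPKM in MoBY control libraries, against 115 and 117 RPKM in WT libraries (-0.91 ± 0.10, SE; adjusted p = 0.00179), and *GAC1*, a phosphatase subunit that activates glycogen synthase, *GLC3*, the branching enzyme, and *PGM2*, a phosphoglucomutase, fell by 0.91, 0.83 and 0.83.

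Efflux pump genes rose in 8 of 14 cases, with a median of 0.60. *PDR12*, which exports weak organic acids, had 42.2 and 44.3 RPKM in MoBY control libraries, against 10.5 and 8.82 RPKM in WT libraries (2.06 ± 0.14, SE; adjusted p = 2.40e-04). *TPO1*, a polyamine exporter, had 86.8 and 86.8 RPKM in MoBY control and 34.5 and 30.9 RPKM in WT (1.38), and *PDR10* and *FLR1* rose by 1.33 and 1.25. *PDR5*, the most abundant pump transcript, rose the least of the called genes (0.53), with 755 and 739 RPKM in MoBY control and 545 and 488 RPKM in WT. Among 26 autophagy genes 6 rose, where 13.2% of all genes did. *ATG5*, which joins Atg12 in the conjugate that lipidates Atg8, led them. It had 124 and 115 RPKM in MoBY control libraries, against 14.3 and 14.4 RPKM in WT libraries. *ATG34* (1.11), *ATG22* (1.06) and *ATG33* (0.89) followed, while *ATG8*, the core coat gene, was not called (0.38, adjusted p = 0.156), and the list median was 0.28 (0.46 leaving out MoBY control A).

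At the cell surface, 13 of 23 wall genes rose, 4 fell and the median was 0.80 (0.62 to 0.69 when 1 library was left out). The wall genes *NCW2*, which was higher, and *TOS6*, which was lower, were given above and are not in this list. Nor is *YDR134C*, which was lower. The repair chitin synthase gene *CHS1* had 121 and 119 RPKM in MoBY control libraries, against 23.1 and 19.8 RPKM in WT libraries (2.44 ± 0.12, SE; adjusted p = 7.06e-05), and *CHS2*, which builds the septum in dividing cells, had 12.4 and 8.40 RPKM in MoBY control libraries, against 33.4 and 28.2 RPKM in WT libraries (-1.50 ± 0.20, SE; adjusted p = 0.00355). These enzymes thus moved in opposite directions. The wall mannoprotein gene *HSP150* was the highest in RPKM, with 4012 and 3956 RPKM in MoBY control libraries, against 1342 and 1053 RPKM in WT libraries (1.74). The stress sensor gene *MID2* rose by 1.69, the glycosylase gene *CRH1* by 1.67, the stress-induced glucan synthase gene *GSC2* by 1.33 and the kinase gene *SLT2* by 1.22. *MID2* overlaps the reading frame YLR331C on the genome, and whether reads were counted by strand is unknown, so its value is uncertain. *GAS1*, the main glucan remodeling enzyme of growing cells, fell (-0.98), as did *CWP2* (-0.77) and *GAS3* (-0.59).

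The seripauperin and mannoprotein genes of anaerobic walls rose in 16 of 21 cases, with a median of 1.60. Leaving out 1 library at a time gave medians of 1.61 to 1.79. Together they held 8.26% and 7.02% of summed RPKM in MoBY control, against 3.23% and 3.07% in WT. *PAU21* had 267 and 186 RPKM in MoBY control libraries, against 19.8 and 21.7 RPKM in WT libraries (3.36 ± 0.18, SE; adjusted p = 1.05e-04), *PAU13* had 101 and 56.5 RPKM in MoBY control and 8.88 and 8.69 RPKM in WT, and *DAN4* had 138 and 129.8 RPKM in MoBY control and 27.3 and 21.6 RPKM in WT. *PAU15* rose by 2.84. *TIR2* went the other way, with 79.9 and 74.03 RPKM in MoBY control libraries, against 143 and 154 RPKM in WT libraries (-0.94), and *TIR1* was not called (5595 and 4837 RPKM in MoBY control and 4771 and 4269.9 RPKM in WT). *TIR1* was the highest of these genes in both WT libraries, and *PAU17*, with 14362 and 12590.0 RPKM in MoBY control libraries, against 3236 and 2856 RPKM in WT libraries, was the highest in both MoBY control libraries. The *PAU* genes are near-identical copies that can share reads, so single members are uncertain.

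**Figure D2:**
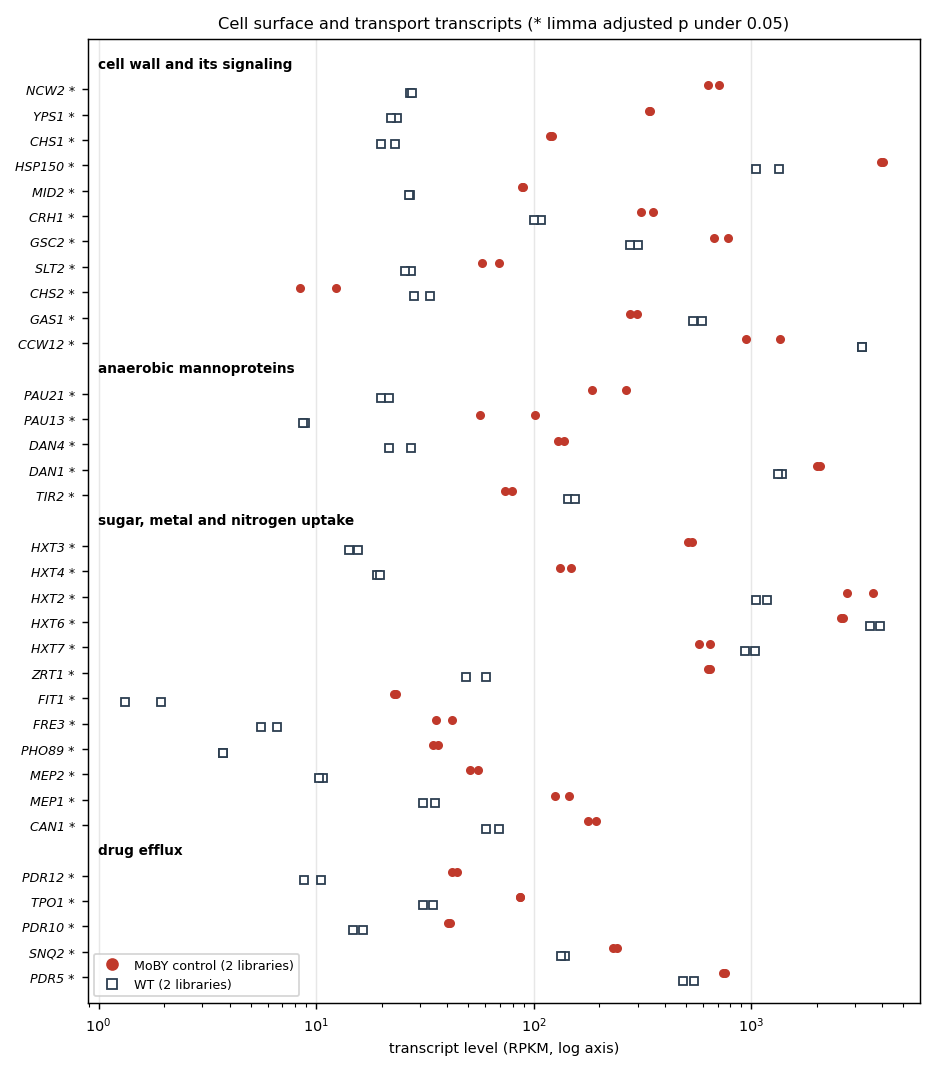
Transcript levels of cell surface and transport genes (RPKM, log axis), with filled circles for the 2 MoBY control libraries and open squares for the 2 WT libraries, and an asterisk for a limma adjusted p under 0.05. *NCW2*, *YPS1*, *HXT3* and *ZRT1* are far higher in MoBY control, and *CHS2*, *GAS1*, *CCW12*, *TIR2*, *HXT6* and *HXT7* are lower.

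Transport of sugar changed in makeup. Of 11 tested genes, 4 rose and 2 fell, where 13.2% and 10.6% of all genes did. *HXT3*, a low-affinity transporter, had 534 and 512 RPKM in MoBY control libraries, against 15.6 and 14.2 RPKM in WT libraries, *HXT4* had 148 and 132 RPKM in MoBY control and 19.03 and 19.7 RPKM in WT (2.79) and *HXT2* had 3641 and 2740.1 RPKM in MoBY control and 1184 and 1053 RPKM in WT (1.50). The high-affinity genes *HXT6* and *HXT7*, which also carry xylose, fell to 2647 and 2574 RPKM in MoBY control for *HXT6*, against 3902 and 3517 RPKM in WT (-0.50), and by 0.69 for *HXT7*. Their sequences are nearly identical and may share reads. On the RPKM scale *HXT6* was the highest of these genes in both WT libraries, and in MoBY control *HXT2* and *HXT6* were close, with *HXT2* ahead in both. The signaling gene *STD1* rose by 0.82, while its homolog *MTH1* (-0.19) and the sensor genes *SNF3* (-0.30) and *RGT2* (0.15) were not called. *HXT1* was not analysed here.

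Uptake genes for metals, phosphate and nitrogen were counted against the 13.2% of all genes that rose and the 10.6% that fell. The iron genes rose in 6 of 15 cases, among them the wall siderophore gene *FIT1*, with 22.8 and 23.3 RPKM in MoBY control libraries, against 1.95 and 1.33 RPKM in WT libraries (3.20 ± 0.19, SE; adjusted p = 1.36e-04), the ferric reductase gene *FRE3* (2.49), *ARN1* (1.23) and *FIT3* (1.23). *FET4*, a low-affinity iron carrier, fell by 0.61. *ZRT1*, the high-affinity zinc carrier, chosen here with its value known, had 644 and 635 RPKM in MoBY control libraries, against 60.5 and 48.8 RPKM in WT libraries. The phosphate genes stood near those shares, as of 15 genes 1 rose, the sodium-coupled carrier gene *PHO89*, with 36.3 and 34.5 RPKM in MoBY control and 3.73 and 3.73 RPKM in WT (2.94), and 2 fell, *VTC1* (-0.56) and the acid phosphatase gene *PHO5* (-0.43). Permease genes rose in 8 of 16 cases and fell in 1. The ammonium carrier genes *MEP2* and *MEP1* had 55.3 and 50.9 RPKM in MoBY control and 10.7 and 10.3 RPKM in WT for *MEP2* and 145 and 125 RPKM in MoBY control and 35.3 and 31.1 RPKM in WT for *MEP1*. The arginine permease gene *CAN1* rose by 1.51, the methionine permease gene *MUP3* by 0.91, and *TAT1*, for valine and tyrosine, fell by 0.48, although a noncoding RNA gene overlaps it.

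Cytosolic ribosomal protein genes took 10.5% and 11.7% of summed RPKM in MoBY control, against 15.6% and 16.3% in WT, and 68 of 122 fell, with a median of -0.57 (-0.65 to -0.47 when 1 library was left out). The 2 MoBY control libraries differed from each other here by more than the WT libraries did, and both were below both WT libraries. *RPS29B* had 1951 and 1121 RPKM in MoBY control libraries, against 3666 and 3104 RPKM in WT libraries (-1.19 ± 0.27, SE; adjusted p = 0.0226), and *RPS24A* (-1.11), *RPS29A* (-1.05) and *RPS27A* (-0.94) followed. *RPL4A* had the highest change of the list, 0.43, and was not called (adjusted p = 0.117). Most of these genes exist as near-identical pairs, so the split within a pair is uncertain. Mitochondrial ribosomal protein genes fell in 13 of 54 cases, where 10.6% of all genes fell, with a median of -0.39 (-0.21 leaving out MoBY control A). Among them were *MRPS5* (-0.85), *MRPL51* (-0.82, overlapped by another reading frame), *MRPL24* (-0.77) and *MRPL40* (-0.69).

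Of 109 ribosome biogenesis genes 16 fell, where 10.6% of all genes fell, and 1 rose, with a median of -0.26 (-0.11 leaving out MoBY control A). Beside *NOP1*, the nucleolar genes *NSR1*, with 52.7 and 51.3 RPKM in MoBY control libraries, against 105 and 107 RPKM in WT libraries, and *GAR1* (-1.01) fell, as did *SAS10* (-0.89). The helicase gene *SPB4* was the rise, at 0.90. The count of RNA polymerase I and III genes that fell, 5 of 33, was near the 10.6% of all genes, with a median of -0.12 (-0.34 leaving out MoBY control B and -0.20 leaving out WT B), and included *RPC37* (-0.74), *RPA34* (-0.65), *RPA135* (-0.64) and *RPC11* (-0.58). Of 36 translation factor genes 13 fell and 2 rose. *CAM1*, a subunit of elongation factor 1B, had 49.5 and 62.7 RPKM in MoBY control libraries, against 136 and 139 RPKM in WT libraries (-1.29 ± 0.14, SE; adjusted p = 0.00149), and *TIF5* (-0.81), the cap-binding gene *CDC33* (-0.75) and the elongation factor 3 gene *YEF3* (-0.69) fell too. The exceptions were *DED1*, a helicase that opens mRNA leaders, with 290.0 and 286 RPKM in MoBY control libraries, against 126 and 112 RPKM in WT libraries (1.27 ± 0.11, SE; adjusted p = 5.91e-04), and *HEF3* (0.65), the rarer copy of *YEF3*, with which it may share reads. Transfer RNA synthetase genes fell in 10 of 18 cases, with *SES1* (-0.71), *DED81* (-0.69), *FRS2* (-0.63) and *THS1* (-0.59) in front.

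**Figure D3:**
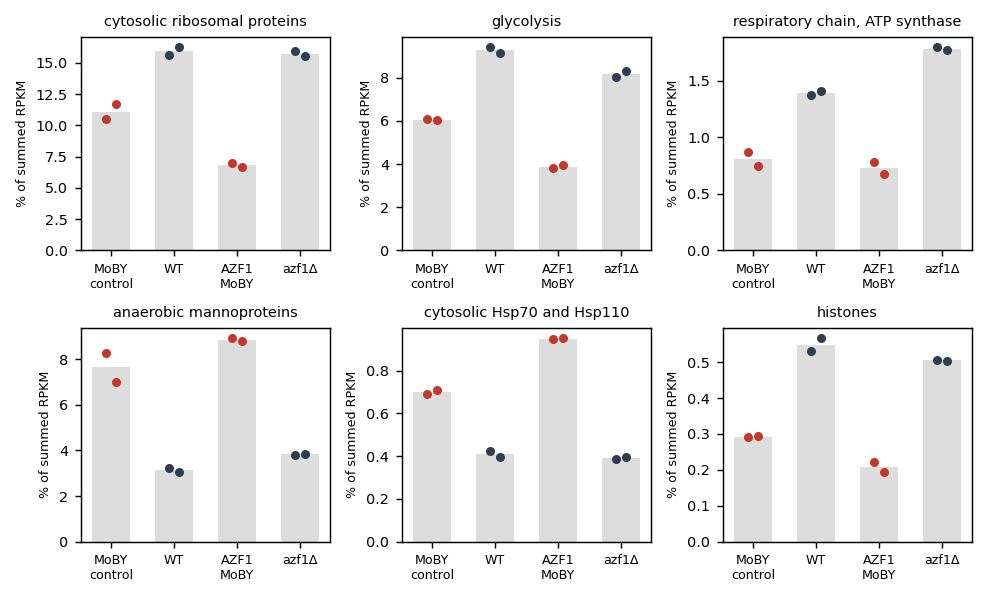
Share of summed RPKM (percent) held by 6 gene lists in each library, with bars for the mean of 2 libraries and points for the libraries, in the order MoBY control, WT, *AZF1* MoBY and *azf1Δ*. Ribosomal protein, glycolytic, respiratory and histone shares are lower, and mannoprotein and Hsp70 shares higher, in MoBY control than in WT.

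Of 8 histone genes 7 fell, with a median of -0.76 and 0.292% and 0.293% of summed RPKM in MoBY control, against 0.530% and 0.567% in WT. *HTB2* had 396 and 369.6 RPKM in MoBY control libraries, against 969 and 936 RPKM in WT libraries (-1.31 ± 0.11, SE; adjusted p = 4.95e-04). *HTA2* (-1.32), the linker histone gene *HHO1* (-0.83) and *HHT1* (-0.81) fell as well. Of 19 cyclin and Start genes 4 fell and 1 rose, where 10.6% of all genes fell and 13.2% rose. The G1 cyclin genes *CLN2*, with 14.5 and 16.1 RPKM in MoBY control libraries, against 33.4 and 38.1 RPKM in WT libraries, and *CLN1* (-0.90) fell, along with the Start repressor gene *WHI5* (-1.21) and *SWI6* (-0.55), a subunit of the Start transcription factors. *CLN3*, the upstream cyclin that opposes Whi5, rose, with 52.3 and 51.6 RPKM in MoBY control libraries, against 33.1 and 28.8 RPKM in WT libraries (0.73 ± 0.12, SE; adjusted p = 0.00762). The S phase ribonucleotide reductase gene *RNR1* was the single call among 13 DNA synthesis genes, at 35.02 and 27.1 RPKM in MoBY control and 69.6 and 66.7 RPKM in WT. In bulk samples, fewer cells in a phase and less RNA per cell cannot be told apart.

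In central carbon metabolism, 12 of 17 glycolytic genes fell (median -0.67), and their share of summed RPKM was 6.08% and 6.03% in MoBY control, against 9.42% and 9.14% in WT. *TDH1* had 2062 and 1924 RPKM in MoBY control libraries, against 4482 and 4153 RPKM in WT libraries (-1.11 ± 0.13, SE; adjusted p = 0.00246), and *HXK1*, a hexokinase, had 2288 and 2149.8 RPKM in MoBY control and 4973 and 4329.5 RPKM in WT. The enolase gene *ENO1* (-0.97) and the pyruvate kinase gene *CDC19* (-0.92) fell, while the other enolase gene *ENO2* (-0.25) and the dehydrogenase gene *TDH3* (-0.16) were not called, so isozymes of the same step differed in whether they passed the test. Beyond pyruvate, 5 of 15 ethanol and acetate genes fell, where 10.6% of all genes fell, and 10 were not called. The median of that list was -0.16 (-0.34 leaving out WT B). *PDC1*, the main pyruvate decarboxylase, had 776 and 771 RPKM in MoBY control libraries, against 2487 and 2195 RPKM in WT libraries (-1.59 ± 0.12, SE; adjusted p = 4.19e-04). *ALD4*, the mitochondrial acetaldehyde dehydrogenase, fell by 1.67, the alcohol dehydrogenase gene *ADH5* by 1.24 and the cytosolic *ALD6* by 0.80. *ADH1*, the dehydrogenase that makes ethanol, was not called, and its MoBY control libraries were far apart, at 9410.1 and 15287 RPKM in MoBY control libraries, against 16728 and 14165 RPKM in WT libraries.

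Xylose enters through the pentose phosphate pathway, where 2 of 13 genes rose and 2 fell, near the 13.2% and 10.6% of all genes. *TAL1*, the transaldolase, of which the strain carries an added copy, had 298 and 296 RPKM in MoBY control libraries, against 512 and 519 RPKM in WT libraries (-0.79 ± 0.10, SE; adjusted p = 0.00278), and the ribose isomerase gene *RKI1* fell by 0.94. *TKL2*, the minor transketolase, had 13.1 and 11.5 RPKM in MoBY control libraries, against 1.26 and 1.47 RPKM in WT libraries (2.49), whereas the major *TKL1* was not called (576 and 613 RPKM in MoBY control and 798 and 724 RPKM in WT). *GRE3*, the aldose reductase that makes xylitol and is mutated in Y128, rose in transcript by 1.04. The minor *TKL2* remained far below *TKL1* in RPKM in all 4 libraries.

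Of 34 genes of the respiratory chain and ATP synthase 26 fell, with a median of -0.81, the lowest of all lists. This count, and those of the citrate cycle and glycerol below, stand beside the 10.6% of all genes that fell. *COX13*, a cytochrome oxidase subunit gene, had 39.7 and 35.5 RPKM in MoBY control libraries, against 112 and 109.9 RPKM in WT libraries (-1.54 ± 0.11, SE; adjusted p = 3.13e-04). The ATP synthase subunit genes *ATP20* (-1.38) and *ATP14* (-1.29) and the oxidase gene *COX4* (-1.24) followed. Both forms of subunit 5 fell, the aerobic *COX5A* (-0.72) and the hypoxic *COX5B* (-1.01). In the citrate cycle 9 of 23 genes fell, led by the succinate dehydrogenase genes *SDH1*, with 80.4 and 87.4 RPKM in MoBY control libraries, against 202 and 187 RPKM in WT libraries, and *SDH2* (-1.14), and by *LSC2* (-0.82) and the citrate synthase gene *CIT1* (-0.82). Gluconeogenic genes were not called in 8 cases (1 with an unadjusted p under 0.05). Of 11 glycerol genes 4 fell, in breakdown *GUT2* (-1.42) and *GUT1* (-0.88) and in synthesis *GPD1* (-0.58) and *GPP1* (-0.51).

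Amino acid and nucleotide synthesis gave few and mixed calls, to be set beside the 13.2% of all genes that rose and the 10.6% that fell. Beside *ILV6*, the branched-chain genes *LEU9* (-0.77), *BAT2* (-0.52) and *ILV3* (-0.42) fell, so 4 of 10 were lower. *LEU2* was counted among the plasmid and strain markers and not in this list. Arginine genes fell in 3 of 10 cases, *ARG3* (-0.81), *ARG4* (-0.62) and *ARG1* (-0.39), and among lysine genes *LYS20* (-0.44) did. Of 14 aromatic genes 4 fell, *ARO1*, with 76.1 and 67.2 RPKM in MoBY control libraries, against 146 and 133 RPKM in WT libraries, *ARO4* (-0.85), *TRP2* (-0.63) and *TRP4* (-0.47), and the aminotransferase gene *ARO9*, which also serves breakdown, rose by 0.52. Histidine and NAD genes gave no call in 7 and 11 cases (1 and 2 with an unadjusted p under 0.05). In sulfur metabolism 5 of 23 genes rose, among them *MET13* (0.92), *MET10* (0.90), *HOM3* (0.63) and *MET2* (0.57), and 3 fell, *SAM2* (-0.66), *HOM2* (-0.61) and *CYS4* (-0.55).

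Of 21 purine and one-carbon genes 3 rose and 4 fell, where 13.2% and 10.6% of all genes did. *ADE17*, an enzyme of inosine monophosphate synthesis, had 52.7 and 59.7 RPKM in MoBY control libraries, against 22.2 and 22.2 RPKM in WT libraries (1.30 ± 0.12, SE; adjusted p = 8.01e-04), with *ADE8* (0.80) and *SHM2* (0.49) beside it, and *IMD3* (-0.71), *ADE6* (-0.60), *GUA1* (-0.48) and *SHM1* (-0.45) fell. The vitamin B6 genes *SNZ1* and *SNO1*, which lie next to each other and share a promoter region, rose together, with 30.7 and 38.9 RPKM in MoBY control libraries, against 6.68 and 7.21 RPKM in WT libraries for *SNO1* and a change of 1.82 for *SNZ1*. They were the calls among 10 genes of thiamine and vitamin B6, where 13.2% of all genes rose.

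Lipid genes were uneven, beside the 13.2% of all genes that rose and the 10.6% that fell. Sterol synthesis genes rose in 6 of 25 cases and fell in 1. *ERG25*, the methyl sterol oxidase, had 680.3 and 635 RPKM in MoBY control libraries, against 347 and 298 RPKM in WT libraries (1.03 ± 0.12, SE; adjusted p = 0.00223), with *ERG4* (0.98), *ERG3* (0.75) and *ERG1* (0.71) behind it, and *IDI1*, an earlier step of isoprene synthesis, fell by 0.51. Of 12 fatty acid genes 1 rose, the elongase gene *ELO3* (0.78), and 4 fell, *FAA1*, *ELO1* (-0.58), the synthase gene *FAS2* (-0.53) and *FAA4* (-0.44). The elongases for medium and very long chains, *ELO1* and *ELO3*, thus went in opposite directions.

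**Figure D4:**
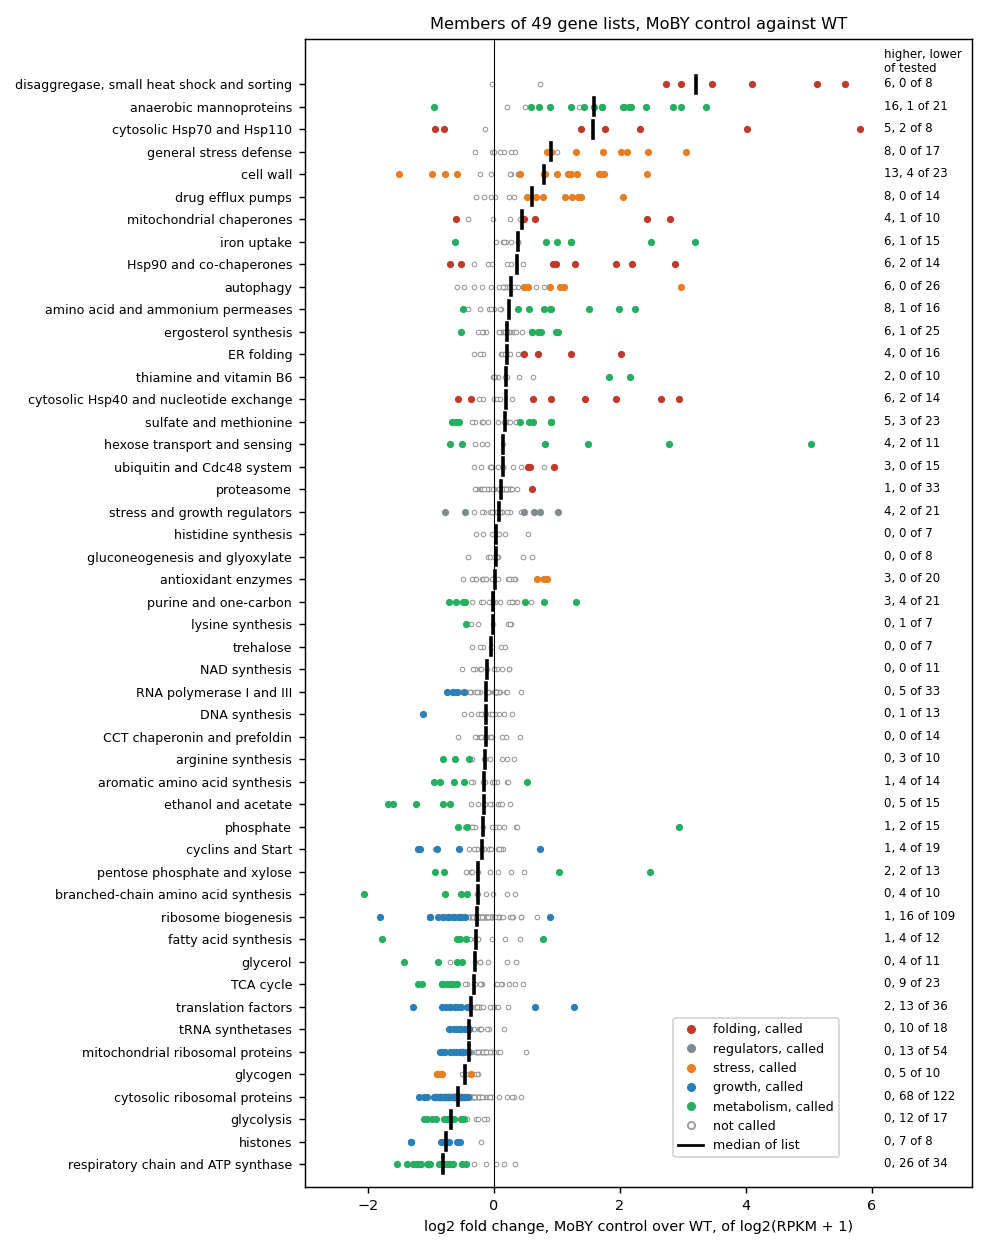
Log2 fold changes of list members, MoBY control over WT, with 1 row per list, filled points for genes called by limma, open points for the others and a black bar for the list median; the numbers at the right count members higher, lower and tested. The disaggregase, mannoprotein, Hsp70, general stress and cell wall lists stand at the top, from 3.22 to 0.80, and the cytosolic ribosomal protein, glycolysis, histone and respiratory lists at the bottom, from -0.57 to -0.81.

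A second pair of groups, *AZF1* MoBY and *azf1Δ*, also differed in plasmid and G418 and shared no library with the first, but *AZF1* dose differed there too. In that pair 55.9% of 6019 genes were called, 25.8% higher and 30.1% lower in *AZF1* MoBY. Of the 788 genes that rose in MoBY control, 750 (95.2%) also rose in *AZF1* MoBY, and of the 633 that fell and were tested in both, 520 (82.1%) fell. The 1270 genes called in the same direction made 89.4% of the calls of the first pair and 38.1% of the 3337 calls of the second. *SSA4* had 744 and 755 RPKM in *AZF1* MoBY libraries, against 4.99 and 5.78 RPKM in *azf1Δ* libraries, a change of 6.88 beside 5.81 in the first pair, and *HSP104* changed by 3.58 beside 2.74. The disaggregase, small heat shock and sorting list had a median of 4.01 and the cytosolic ribosomal protein list -1.23. Glycolysis had -1.12, histones -1.15 and the respiratory list -1.42, where the median over all genes was -0.07. Whether the sizes differ between the pairs was not tested.

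**Figure D5:**
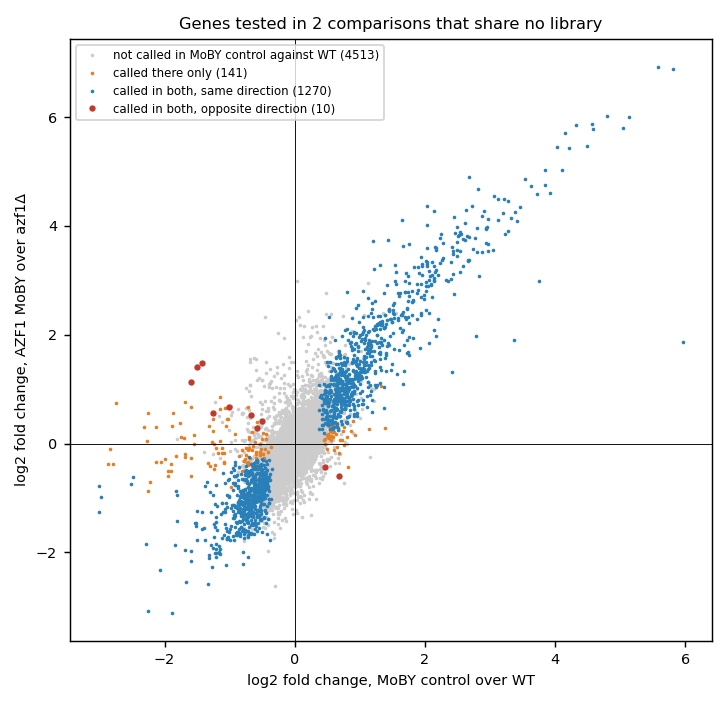
Log2 fold change of each gene tested in both pairs, with MoBY control over WT on the horizontal axis and *AZF1* MoBY over *azf1Δ* on the vertical axis, colored by where it was called. The 1270 genes called in both in the same direction fill the upper right and lower left, and 10 genes have opposite signs.

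*EUG1* was called in the first pair (0.70) and changed by 0.07 in the second, where it was not called (adjusted p = 0.37), and *FAA1* changed by 0.39 there, with 7.67 and 5.82 RPKM in *AZF1* MoBY libraries, against 6.15 and 3.84 RPKM in *azf1Δ* libraries. Among the 10 genes called in opposite directions were *GPP1*, the glycerol phosphatase, which changed by -0.51 ± 0.13 (SE) in the first pair and 0.42 ± 0.09 in the second, and *ELO1*, at -0.58 ± 0.11 and 0.29 ± 0.10. Of the 10, 5 had no RefSeq entry.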

How the data were processed

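RNA was depleted of ribosomal RNA and made into strand-specific libraries. Per the submitters' processing notes, reads were processed with Trimmomatic 0.3.0, Bowtie2 2.2.2 and HTSeq 0.6.0. The study's methods state alignment to the Y22-3 genome, and whether counting used the strand is not given in the sources used here. The authors deposited one table of log2 RPKM values, rounded to 2 decimals, for 6328 genes in 8 libraries. The labels name the strain Y128, which is kept here, whereas the methods name a derivative of it with the drug marker removed.

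Values were turned back into RPKM. The depth was the one, of those tried, at which most low values were whole multiples of the value of 1 read. At that depth 86.5% to 91.1% of them were whole within 0.15. The share by chance is 30% for a depth fixed beforehand, and was not worked out for the best of many. This gives an estimate of depth only, and no count test was run. Gene names were matched to RefSeq for 5647 genes. Genes that reached 1 RPKM in 2 or more of the 4 libraries of a pair were fitted with limma 3.58.1 (R 4.3.3) on log2(RPKM + 1) with a variance trend, and p-values were adjusted over all genes tested by the Benjamini-Hochberg method. The script was tested on simulated data. Alternatives are listed in the closing section. Replicates were collected on different days from cultures of 1 strain, so p-values measure the spread between these libraries.

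The comparison and the gene lists were chosen with earlier results of these data known. Named genes are the 12 largest called rises and falls with a RefSeq entry, up to 4 called rises and 4 falls per list, and the markers, regulators and folding genes, with the larger folding lists given by counts and ranges. Other members, such as *ATG8*, *CTT1*, *TPS1*, *ADH1*, *ENO2*, *TKL1*, *TIR1*, *PAU17*, *HSP150* and *ZRT1*, were chosen by role with their values known. List members outside the table or under the filter were not analysed here. Summaries and figures used Python 3.11.15 with numpy 2.4.6, pandas 2.3.3 and matplotlib 3.10.9.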

Additional observations from a re-analysis of the deposited data

Results flagged for a closer look

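*GPP1*, which encodes a phosphatase of glycerol synthesis, fell in MoBY control, with 87.4 and 109 RPKM in MoBY control libraries, against 138 and 141 RPKM in WT libraries (log2 fold change -0.51 ± 0.13, SE; adjusted p = 0.0371), and rose in *AZF1* MoBY, with 101 and 97.01 RPKM in *AZF1* MoBY libraries, against 79.3 and 68.6 RPKM in *azf1Δ* libraries (0.42 ± 0.09, SE; adjusted p = 0.00786). *ELO1*, a fatty acid elongase gene, had 39.1 and 35.8 RPKM in MoBY control libraries, against 56.5 and 56.5 RPKM in WT libraries (-0.58 ± 0.11, SE; adjusted p = 0.0126), and in the second pair 58.9 and 59.7 RPKM in *AZF1* MoBY libraries, against 52.7 and 44.02 RPKM in *azf1Δ* libraries (0.29 ± 0.10, SE; adjusted p = 0.0468). Both were singled out because they were among the named genes and were called in both pairs in opposite directions. In all, 10 genes were called so, 5 of them with a RefSeq entry. The difference between the pairs was not tested, and the amount of *AZF1* differs in the second pair as well as plasmid and G418.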

How the results depend on the processing

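Each result was recomputed with a pseudocount of 0.25 RPKM, without the filter, with median-ratio rescaling of the libraries, with all 8 libraries in the fit, without the variance trend, on genes with a RefSeq entry alone, with the replicate letter as a block, and without each library in turn. The number of genes called between MoBY control and WT ranged between 1178 (no variance trend) and 1930 (all 8 libraries), against 1422, was 688 at an adjusted p under 0.01, and fell to between 282 and 503 with 1 library left out, where a group is 1 library. For the list genes the number was 90 to 161 with 1 library left out, against 382. For *AZF1* MoBY against *azf1Δ* the count was 2190 to 2402 with 1 library left out, against 3366. Rescaling called 834 rises and 636 falls and moved the median of all genes to -0.01. Of the 227 genes named with values and called, 197 to 227 stayed called under the settings that kept 4 or more libraries and tested all genes, and 90 to 132 with 1 library left out. No named gene that was called changed direction under any of these settings. Genes that were not called and changed sign when 1 library was left out had log2 fold changes, lowest to highest, of *XDJ1* -0.046 to 0.064, *JJJ1* -0.19 to 0.29, *SNL1* -0.14 to 0.71, *CPR7* -0.25 to 0.18, *TAH1* -0.39 to 0.22, *PIH1* -0.085 to 0.50, *HSP12* -0.80 to 2.26, *HSP31* -0.17 to 0.10, *SSQ1* -0.15 to 0.13, *JAC1* -0.075 to 0.58, *YAP1* -0.20 to 0.073, *SFP1* -0.039 to 0.21, *CAD1* -0.071 to 0.33, *PDR3* -0.028 to 0.056, *MGA2* -0.054 to 0.0050, *CAT8* -0.058 to 0.013, *CTT1* -0.17 to 0.12, *TPS1* -0.11 to 0.025 and *TDH3* -0.32 to 0.0050. Rescaling also moved *SSQ1* to 0.0037. Of the named genes that were not called, 12 were called with all 8 libraries in the fit, among them *CpXylA* and *TKL1*, *CCT2* was under rescaling and *SKN7* on genes with a RefSeq entry. Of 50 list medians, 16 to 23 moved by more than the spread between replicates when 1 library was left out, by up to 0.37, and 0 to 3 changed sign. Under rescaling 3 moved and 1 changed sign.

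The replicate letters did not pair the samples, as the deviations of same-lettered libraries of MoBY control and WT had a correlation of 0.038 across genes. With the letter as a block, 1497 genes were called, and 223 of the 227 named calls held. The depth limits genes near 1 RPKM, and for *HSP12* the MoBY control libraries were also far apart. A planned search of promoters for motifs was not run, since the genome build of the files was not in the reference used here.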
